A study of Oryza sativa Japonica Group with 4 samples.

Results

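JAZ5, JAZ9, JAZ11 and JAZ13 are rice genes for JASMONATE ZIM-DOMAIN (JAZ) proteins, the repressors of jasmonate signaling. The 4 genes were selected on their own values, because their intensities had been seen to be higher in glutamate-treated than in untreated roots. The difference between these groups is therefore described for them and not tested. Each gene was measured by 1 probe set, a set of short oligonucleotides on the array, out of 57194 probe sets that were not controls and 17905 genes that had a probe set of their own. Rice JAZ genes go by more than 1 numbering in the literature, and a number was taken as a gene's own only where the gene table gave it both with and without the Os prefix. By this rule JAZ5 is TIFY9, JAZ9 is TIFY11a, JAZ11 is TIFY11c and JAZ13 is TIFY11e, and the gene table gives them placeholder symbols (LOC4335698 for JAZ5, LOC4331832 for JAZ9, LOC4331833 for JAZ11 and LOC4348531 for JAZ13).

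The +Glu roots came from seedlings kept for 30 min in a solution that held glutamate at 2.5 mM, and the −N roots from seedlings kept as long in a solution without nitrogen. All seedlings were 17-day-old japonica rice of the variety TNG67 and had grown without nitrogen for 2 weeks after germination, in the +Glu as in the −N group. There were 2 biological replicates per group, 4 Affymetrix GeneChip Rice Genome Arrays in all, and the number of plants behind each RNA sample is not stated. The comparison asks which transcripts respond to external glutamate within 30 min in roots without other nitrogen.

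Jasmonates are lipid-derived hormones of wounding, defense and root growth. In the resting cell JAZ proteins bind MYC-type transcription factors and, through the adaptor NINJA, recruit TOPLESS-type corepressors to their promoters. When jasmonoyl-isoleucine is present, the F-box protein COI1 captures JAZ proteins and marks them for degradation, which frees the transcription factors. JAZ genes are themselves among the early targets of these factors, so the repressors are resupplied while the signal lasts. JAZ proteins belong to the TIFY family, named after a short motif in the ZIM domain.

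Each value is a linear intensity, 1 for each array and probe set, and intensities of different probe sets cannot be set against each other. The median intensity was 19.3 and 23.9 on the +Glu arrays and 20.2 and 23.9 on the −N arrays. The 2 −N arrays were the least alike within a group, with 4133 probe sets at least 2-fold apart, against 1873 between the 2 +Glu arrays. As a check of the tissue, 10 root marker genes summed to 9651 and 10777 on the +Glu arrays and to 8547 and 12395 on the −N arrays, with the silicon transporter gene Lsi1 between 7085 and 9275 and OsSCR1 at no more than 12.0 throughout. Leaf markers were present too: 10 probe sets of 3 genes (CAB2R, rca and RBCS, of light harvesting and carbon fixation) summed to 20948 and 18136 on the +Glu arrays and to 14775 and 23909 on the −N arrays. Both sums were lowest in −N replicate 1, and highest in −N replicate 2, the array on which all 4 JAZ genes were lowest, and the part of leaf RNA in the results was not tested. CAB2R made up most of the leaf sums. The brightest probe set of rca read 381.3 and 1275 on the −N arrays, 3.35-fold apart, and that of RBCS 309.7 and 1193, 3.85-fold apart. On the +Glu arrays these probe sets were 1.06-fold and 1.23-fold apart. With whole roots, more RNA per cell cannot be told apart from more cells of a type that holds the transcript.

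All 4 JAZ probe sets were more than 2-fold higher in +Glu roots than in −N roots, and in each of them both +Glu arrays lay above both −N arrays. Of all probe sets, 1.11% were at least 2-fold higher, and in 10.3% the groups were separated in this direction. As the genes were selected on this contrast, nothing is read from the difference between these shares. The median log2 fold change of the 4 genes was 1.40, with a range of 1.18 to 1.61, while the median was −0.027 over all probe sets and 0.026 over all genes.

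JAZ13 (TIFY11e, chromosome 10) showed the clearest separation of the groups. Its intensity was 733.3 and 849.8 in +Glu roots, against 318.3 and 209.7 in −N roots. The +Glu replicates lay close together, and even the lower of them was more than 2-fold above the higher −N array, a gap of 1.20 on the log2 scale. The means were 791.6 ± 82.4 in +Glu roots and 264.0 ± 76.8 in −N roots (SD, n = 2 each), and the log2 fold change was 1.61 with a standard error of 0.28, or 3.06-fold. JAZ13 was the member whose −N arrays agreed best, at 1.52-fold apart. It was also the only one of the 4 that stayed above 2-fold whichever array was left out, with log2 fold changes between 1.31 and 1.91.

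JAZ9 (TIFY11a, chromosome 3), a gene whose overexpression is known to raise the salt tolerance of rice, followed. Its intensity was 733.2 and 955.3 in +Glu roots, against 475.7 and 184.9 in −N roots. The groups did not overlap, but the −N arrays differed from each other by 2.57-fold, more than the 1.54-fold that separated the lower +Glu array from the higher −N array. JAZ9 averaged 844.2 ± 157 in +Glu roots and 330.3 ± 206 in −N roots (SD, n = 2 each), with a log2 fold change of 1.50 (standard error 0.47), or 2.82-fold. Without −N replicate 2 the log2 fold change was 0.82, and without −N replicate 1 it was 2.18.

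JAZ5 (TIFY9, chromosome 4) is the member that lies outside the TIFY11 group. Its intensity was 224.7 and 377.5 in +Glu roots, against 170.7 and 82.1 in −N roots. Here the replicates were spread in both groups, by 1.68-fold in +Glu roots and by 2.08-fold in −N roots, and the lower +Glu array was only 1.32-fold above the higher −N array. The mean was 301.1 ± 108 in +Glu roots and 126.4 ± 62.6 in −N roots (SD, n = 2 each), and the log2 fold change was 1.30 with a standard error of 0.44, or 2.46-fold. With 1 array left out the log2 fold change of JAZ5 ranged from 0.77, without −N replicate 2, to 1.83, without −N replicate 1, and it was 0.92 without +Glu replicate 2.

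JAZ11 (TIFY11c, chromosome 3) had the smallest change of the 4. Its intensity was 1776 and 1975 in +Glu roots, against 1198 and 571.1 in −N roots. The +Glu arrays were the closest pair of any member, 1.11-fold apart, while the −N arrays were 1.07 apart on the log2 scale. JAZ11 averaged 1876 ± 141 in +Glu roots and 884.7 ± 443 in −N roots (SD, n = 2 each), with a log2 fold change of 1.18 (standard error 0.38), or 2.26-fold. Without −N replicate 2 it was 0.64, below 2-fold, and without −N replicate 1 it was 1.71.

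**Figure D1:**
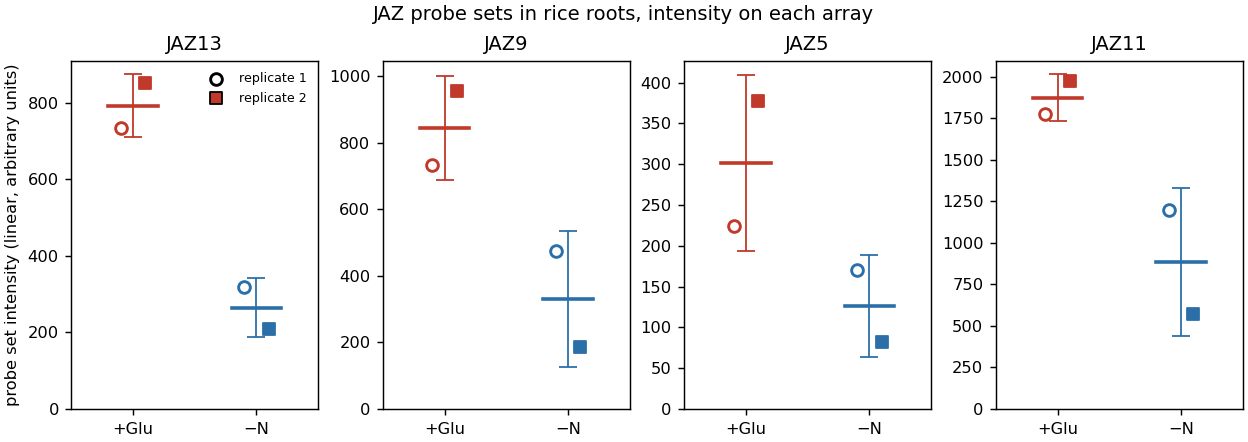
Intensity (linear scale, arbitrary units) of the JAZ13, JAZ9, JAZ5 and JAZ11 probe sets on each array, +Glu left and −N right in every panel, with replicate 1 as open circles and replicate 2 as filled squares. The horizontal line is the mean and the bar is ± 1 SD (n = 2); in each panel both +Glu points lie above both −N points, and the −N points of JAZ9 are 2.57-fold apart.

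The 4 genes varied alike from array to array. In each of them +Glu replicate 2 was the highest array, followed by +Glu replicate 1, −N replicate 1 and −N replicate 2. Averaged over the 4 genes, the log2 intensity relative to each gene's own mean was 0.51 and 0.89 on the +Glu arrays and −0.19 and −1.21 on the −N arrays. The size of the group difference therefore rested in large part on −N replicate 2. Without this array the median log2 fold change of the 4 genes was 0.79, and without −N replicate 1 it was 1.87. Over 9 alternative ways of processing, 36 values in all, 32 values were at least 2-fold. A fit with the replicate number as a block and a filter on dim probe sets left the values of these genes unchanged. These settings could not give a value below 2-fold. The direction could not turn when an array was left out, because the groups of the selected genes do not overlap. The 4 values below 2-fold were those of JAZ9, JAZ5 and JAZ11 without −N replicate 2 and of JAZ5 without +Glu replicate 2.

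The remainder of the family was then examined for the same comparison. The gene table held 18 JAZ and TIFY genes in all, of which 13 besides the 4 members had a probe set, and 1 (TIFY1b) had none. In 9 of these 13 genes the lower +Glu array exceeded the higher −N array, against 14.9% of all genes. The opposite was seen in 0 of the 13, against 1812 of all 17905 genes, and nothing is read from this 0. At the thresholds of the study, a 2-fold change and a p under 0.05, here the unadjusted p of limma, 1 of the 13 was higher and 0 were lower, against 1.7% of all genes higher and 0.0447% lower. At an unadjusted p under 0.05 with no fold limit 2 were higher and 0 lower, against 3.86% of all genes higher and 0.38% lower. After Benjamini-Hochberg adjustment of limma's p over all probe sets 0 of the 13 passed, as did 0% of all genes, since the smallest adjusted p of any probe set was 1. The median log2 fold change was 0.45 over the 9 other JAZ genes, all of them positive, and 0.054 over the 4 TIFY genes that are not JAZ genes (TIFY1a, TIFY2a, TIFY2b and TIFY8).

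JAZ10 (TIFY11b) was the gene of the 13 past the 2-fold thresholds. Its intensity was 3048 and 2602 in +Glu roots, against 1916 and 898.3 in −N roots, with a log2 fold change of 1.10 (standard error 0.39, unadjusted p = 0.0339 by limma). A second probe set of JAZ10 read 967.2 and 929.2 in +Glu roots and 601.7 and 251.9 in −N roots, a log2 fold change of 1.28 (unadjusted p = 0.0269 by limma). Both probe sets put the +Glu arrays above the −N arrays, and the change of the second lay within the range of the 4 selected genes, to which JAZ10 does not belong. JAZ10 no longer passed without +Glu replicate 1, +Glu replicate 2 or −N replicate 2, the log2 fold change being 0.56 in the last case.

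JAZ8 (TIFY10c) was the other gene at 2-fold or more, with 883.9 and 887.3 in +Glu roots, against 760.0 and 256.3 in −N roots. The +Glu arrays were nearly equal and the −N arrays far apart, so that its log2 fold change of 1.00 had a standard error of 0.51 and did not pass (unadjusted p = 0.102 by limma). JAZ12 (TIFY11d) had a log2 fold change of 0.71 (unadjusted p = 0.0639 by limma). The p of JAZ12 was 0.0310 by limma with the replicate number as a block and 0.203 by an equal-variance t test. JAZ6 (TIFY10a) read 2961 and 3552 in +Glu roots and 2126 and 2205 in −N roots, with close replicates in both groups and a log2 fold change of 0.58 (unadjusted p = 0.0431 by limma). It passed the p threshold but not the 2-fold cutoff.

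The other members of the family lay nearer to 0. JAZ4, JAZ7, JAZ3 and JAZ1 had log2 fold changes of 0.45, 0.30, 0.30 and 0.21, with no overlap of the groups. In the main analysis none of them had a p under 0.05. The p of JAZ4 was 0.0300 by limma with the replicate block and 0.133 by the equal-variance test. JAZ2 read 5.81 and 6.43 in +Glu roots and 6.71 and 5.40 in −N roots, near the lowest intensities of the arrays (3.15 to 3.52), so that no difference could be seen at this signal. A second, dim probe set of JAZ4 had a log2 fold change of 0.15. Of the TIFY genes without a JAZ name, TIFY2a had a log2 fold change of 0.31, TIFY8 of 0.18, TIFY2b of −0.071 and TIFY1a of −0.087, and the groups overlapped in all of these but TIFY2a.

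**Figure D2:**
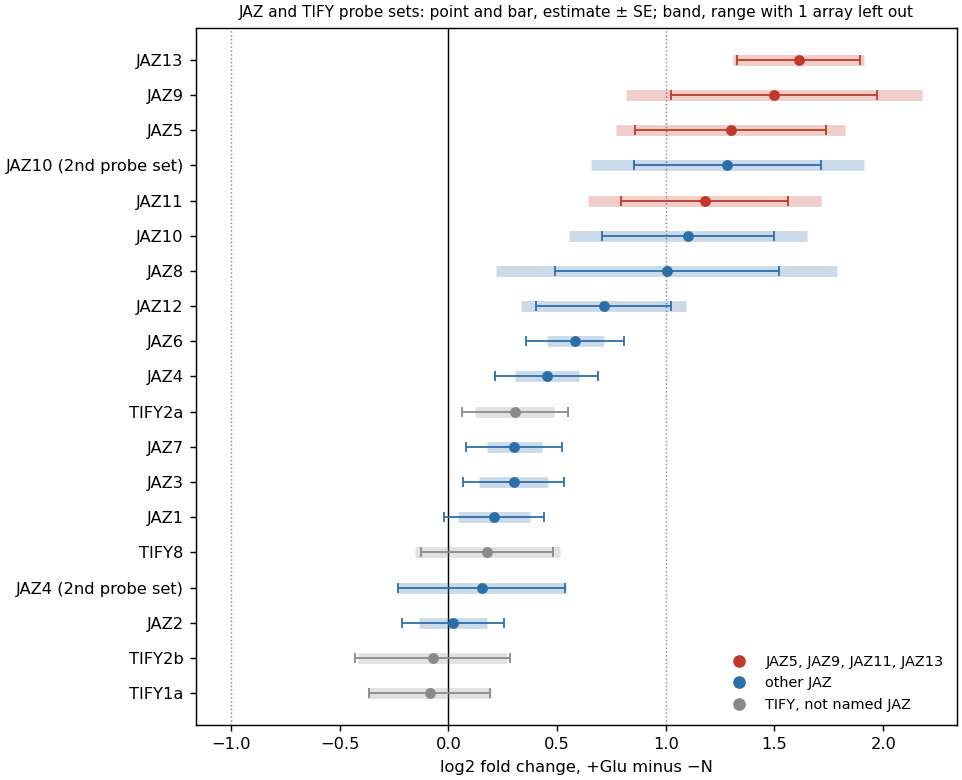
Log2 fold change, +Glu minus −N, of each JAZ and TIFY probe set, with the estimate and its standard error as point and bar and the range of the 4 estimates with 1 array left out as a pale band; dotted lines mark 2-fold. The 4 selected genes (red) run from 1.18 to 1.61, the second probe set of JAZ10 and its first (blue) lie among or just below them at 1.28 and 1.10, and the TIFY genes without a JAZ name (grey) lie around 0.

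The place of the genes in the genome and in the family was examined next. In the gene order of assembly ASM3414082v1, JAZ9, JAZ11 and JAZ10 stood next to each other on chromosome 3 with 0 genes between them. JAZ13 and JAZ12 lay on chromosome 10 with 3 genes between them, of which 2 were protein-coding. These 5 genes are the TIFY11 group, and their log2 fold changes were 1.50 (JAZ9), 1.10 (JAZ10), 1.18 (JAZ11), 0.71 (JAZ12) and 1.61 (JAZ13). In all 5 both +Glu arrays lay above both −N arrays, as in 14.9% of all genes, and JAZ12 had the smallest change. JAZ9, JAZ11 and JAZ13 were selected on this contrast, so nothing is read from this number. JAZ5, on chromosome 4, had no other JAZ gene close by, with 1792 genes between it and JAZ1. The probe sets of the 4 members carry the plain suffix that Affymetrix gives to probe sets designed to match 1 transcript. The brighter probe set of JAZ10 carries the suffix of sets shared between transcripts, so that its signal may include a close relative. The probe sets that stood for JAZ6, JAZ2, TIFY2b and JAZ4 also lack the plain suffix, and the same limit holds for them. The plain probe set of JAZ4 is the dim one, with a log2 fold change of 0.15. Whether any of the probes match a second family member was not tested.

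Jasmonate synthesis, which makes the ligand of the COI1 and JAZ pair, starts with lipoxygenases and goes on through allene oxide synthase, allene oxide cyclase and 12-oxophytodienoate reductase. Of the 31 genes measured from the lists of synthesis, conversion, perception and response, 3 were higher and 0 lower at the 2-fold thresholds, where 1.7% of all genes were higher and 0.0447% lower. At an unadjusted p under 0.05, 7 were higher and 0 lower, against 3.86% and 0.38% of all genes. With Benjamini-Hochberg adjustment 0 of the 31 passed. The median log2 fold change of the 31 genes was 0.11, against 0.026 for all genes. It is not set against the 4 JAZ genes, which were selected on this contrast.

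All 3 genes past the thresholds came from the synthesis list, which was matched by name and held 18 genes with a median of 0.31. The lipoxygenase gene CM-LOX1 read 112.2 and 97.5 in +Glu roots and 24.6 and 21.4 in −N roots, a log2 fold change of 2.19 (standard error 0.23, unadjusted p = 0.000107 by limma). Unlike in the JAZ genes, the −N arrays were close together. A second lipoxygenase gene, CM-LOX2, read 253.2 and 295.5 in +Glu roots and 107.5 and 43.9 in −N roots, with a log2 fold change of 1.99 (unadjusted p = 0.00499 by limma) and −N arrays 2.45-fold apart. Other, dim probe sets of CM-LOX2 stayed under 2-fold, with log2 fold changes of 0.70 (unadjusted p = 0.0466 by limma) and 0.83 (unadjusted p = 0.0528 by limma). The allene oxide synthase gene AOS1 read 505.3 and 514.6 in +Glu roots and 281.6 and 218.5 in −N roots, a log2 fold change of 1.04 (unadjusted p = 0.00539 by limma), which fell under 2-fold (0.86) without −N replicate 2. CM-LOX1 and CM-LOX2 stayed past the thresholds whichever array was left out, but CM-LOX2 did not pass with the equal-variance test. AOS4 ran the other way, with 376.7 and 396.1 in +Glu roots and 462.5 and 1427 in −N roots. Its log2 fold change of −1.07 did not pass (unadjusted p = 0.0932 by limma) and was −0.26 without −N replicate 2.

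Of the other 14 synthesis genes, those named here were picked after their values were seen. The reductase gene OPR1 and the allene oxide synthase gene AOS2 had log2 fold changes of 0.93 and 0.83 and passed the unadjusted p but not the 2-fold cutoff. The allene oxide cyclase gene AOC, which rice has as a single copy, and OPR7, the reductase of jasmonate synthesis in rice, had values of 0.52 (unadjusted p = 0.0592 by limma) and 0.34 (unadjusted p = 0.316 by limma). The p of AOC crossed the threshold in 5 of the 11 alternatives, with values from 0.0129 to 0.0458. LOX5, another lipoxygenase gene, had 0.71 (unadjusted p = 0.0663 by limma). The p of LOX5 also depended on the setting, at 0.00739 by limma with the replicate block and 0.207 by the equal-variance test. At the low end OPR12, AOS3 and DAD1 had −0.38, −0.20 and −0.15. OPR12 and AOS3 were dim, at no more than 10.6 and 11.9 on any array, and the entry DAD1 is by this name unrelated to the lipase of that name. Of the 18 genes on the synthesis list, with dim genes and DAD1 counted, 13 had values above 0 and 5 had values below 0. The list was matched by name, and whether each gene acts in jasmonate synthesis was not checked. It holds OPR genes other than OPR7, and LOX3 also carries the name r9-LOX1. These counts are therefore not read as a result about the pathway.

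Of the genes that convert or clear the hormone, 2 were measured. JAR1, which joins jasmonate to isoleucine to form the ligand that COI1 and JAZ proteins bind, had a log2 fold change of 0.61 (unadjusted p = 0.0587 by limma). The p of JAR1 was 0.0113 by limma with the replicate block and 0.133 by the equal-variance test. ILL6, a member of the amidohydrolase family that cleaves the conjugate in Arabidopsis, had a log2 fold change of 0.63 (unadjusted p = 0.0270 by limma). In both genes the +Glu arrays lay above the −N arrays, as in 14.9% of all genes.

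The proteins that work directly with JAZ proteins were coded by genes with values around 0. With 1 probe set per gene, the 7 measured genes of this list ranged from −0.17 to 0.11 with a median of −0.049, and 0 of the 7 passed any threshold. A second probe set of NINJA1 had 0.30 and a second one of TPR2 had 0.29, with overlap of the groups in both. COI1b read 2135 and 2189 in +Glu roots, against 2349 and 2509 in −N roots, a log2 fold change of −0.17. The values of the other receptor genes, COI1a and COI2, were −0.098 and −0.086, and that of NINJA1, the adaptor between JAZ proteins and corepressors, was 0.11. The standard errors of these 4 genes were 0.21 to 0.24, so that small changes would not be detectable here. TPR2 and TPR3, also in this list, had larger standard errors of 0.38 and 0.40. The entry ASP1 in this list is by its names an aspartic protease and not a corepressor, and it was kept because the list was matched by name.

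From the list of genes known to respond to jasmonate, 4 were matched by name, of which MYBS3 was found only through its synonym myb30 and is not the gene meant. JAMYB, a MYB gene induced by jasmonate and by blast infection, read 192.8 and 198.9 in +Glu roots and 108.7 and 117.4 in −N roots. Its replicates were close in both groups, and its log2 fold change of 0.79 passed the p threshold (unadjusted p = 0.0109 by limma) but not the 2-fold cutoff. The defense gene PBZ1, the lectin gene salT and MYBS3 had log2 fold changes of 0.25, 0.066 and 0.031, and in all 3 the groups overlapped. A second, dimmer probe set of MYBS3 had −0.36, with both +Glu arrays below both −N arrays (unadjusted p = 0.211 by limma). The early jasmonate response genes RERJ1 and MYC2 found no match by name and were not analysed here. The study reports RERJ1 (bHLH35) among the root genes induced by glutamate, on the arrays and by qRT-PCR. This list is therefore incomplete.

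**Figure D3:**
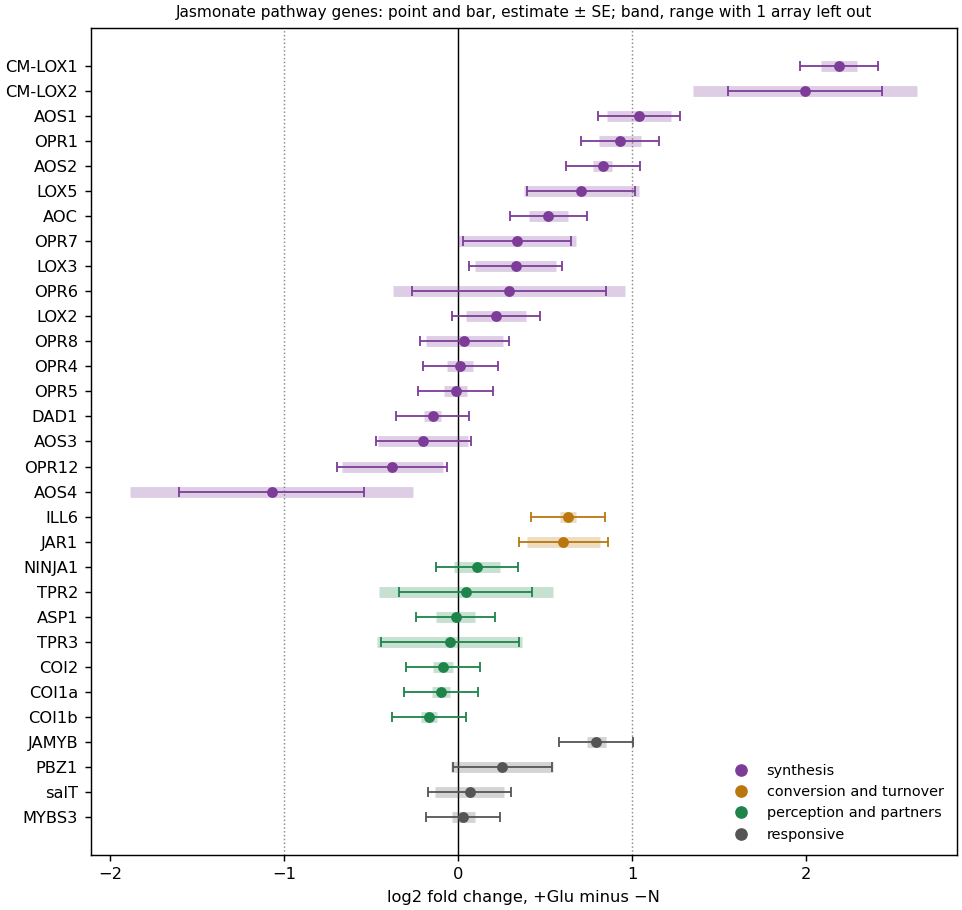
Log2 fold change, +Glu minus −N, of the 31 other jasmonate genes by role, drawn as estimate ± standard error with a pale band for the range when 1 array is left out; dotted lines mark 2-fold. CM-LOX1, CM-LOX2 and AOS1 lie beyond 2-fold, the genes of perception lie between −0.17 and 0.11, and AOS4 has a band from −1.89 to −0.26.

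The pattern of the 4 JAZ genes over the arrays was also set against that of every other named gene with a mean log2 intensity of at least 5, 2008 in number. Likeness was measured as the Euclidean distance between centred log2 profiles over the 4 arrays, for which the mean profile of the 4 genes was used, and it is given as a description. The nearest gene was CAD6 of the cinnamyl alcohol dehydrogenase family at a distance of 0.23, with 1010 and 1214 in +Glu roots and 562.2 and 246.0 in −N roots. It was followed by CML31, a calmodulin-like gene, at 0.24, by HAK16, of the HAK potassium transporter family, at 0.27, and by ABCG36, an ABC transporter gene, at 0.28. A gene listed as chitinase (LOC4351188) was the fifth at 0.29. All 5 showed the order of arrays seen in the JAZ genes, with −N replicate 2 the lowest. They were picked for likeness to this profile, so nothing is read from the shared order.

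Within the family the nearest gene to this profile was JAZ10, at 0.52 and in place 14 of the 2008 genes, followed by JAZ8 at 0.61 and JAZ12 at 0.74. The other JAZ genes lay farther away, between 1.12 for JAZ6 and 1.47 for JAZ2. Genes close on a chromosome were not always the nearest in profile. JAZ11 was at 0.28 from its neighbor JAZ10 and at 0.41 from its neighbor JAZ9, while JAZ9 and JAZ10 were at 0.62. JAZ13 and JAZ12, which lie near each other, were at 0.91, and JAZ5 and JAZ9, on different chromosomes, were at 0.39. All profiles come from the same 4 arrays, and −N replicate 2 sets much of their shape.

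**Figure D4:**
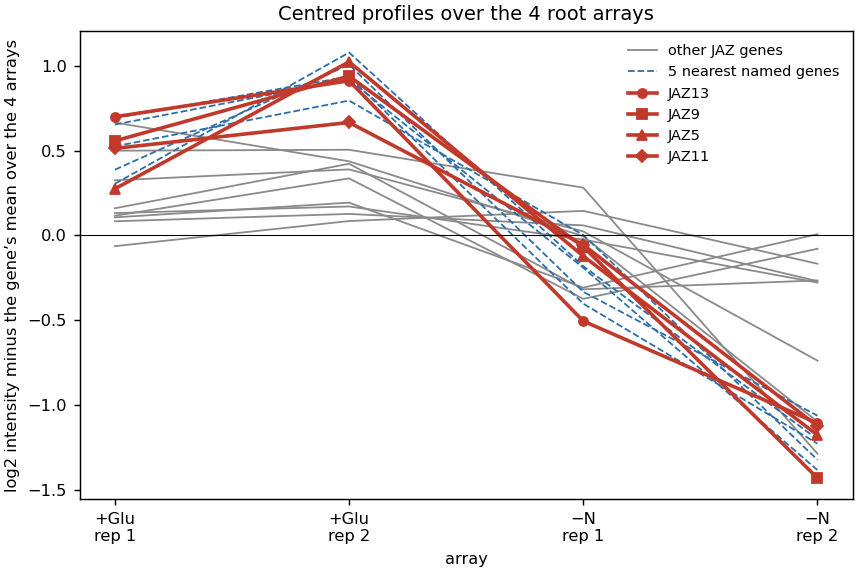
Log2 intensity minus the gene's own mean over the 4 arrays, in the order +Glu replicates 1 and 2 and −N replicates 1 and 2, for the 4 selected JAZ genes (red), the 5 nearest named genes (dashed blue) and the other 9 JAZ genes (grey); lines join arrays of a gene and mark no order in time. The mean of the red profiles is 0.51, 0.89, −0.19 and −1.21, and most grey profiles stay nearer to 0.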

How the data were processed

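Root RNA of both groups was hybridized to 4 Affymetrix Rice Genome arrays. The authors deposited linear intensities, 1 for each array and probe set, and GCOS and RMA are named in the submitters' processing notes. The sources used here give neither versions nor settings for them. Because RMA values are usually log2 and these were not, log2 was taken first, without a pseudocount. Arrays have no read depth, the table holds no detection calls, and the number of arrays limits the precision. The p-values rest on the spread between 2 biological replicates per group. In limma this spread is moderated by that of all probe sets, so it is not the spread of the 1 probe set alone.

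After 187 control probe sets were left out of 57381, +Glu minus −N was fitted with limma 3.58.1 (lmFit and eBayes, no block, two-sided) in R 4.3.3 over 57194 probe sets, with Benjamini-Hochberg adjustment. The methods of the study state a 2-fold cutoff and a p under 0.05 without naming the test, and these limits were applied to limma's unadjusted p. Of several probe sets annotated to 1 gene alone, the one with the highest mean stood for the gene (22436 probe sets, with 95 annotated to several genes and 34663 to none). Names came from RefSeq (assembly ASM3414082v1), and all 17905 genes were found there. The fit was tested on simulated data. Plots were made in Python 3.11.15 (pandas 2.3.3, matplotlib 3.10.9).

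The members and the gene lists were chosen with earlier results of these data known. Genes named are the 4 members, every other measured JAZ or TIFY gene, the up to 4 genes with the largest absolute change in each other jasmonate list, and the 5 named genes nearest in profile. Further synthesis genes (OPR1, AOS2, AOC, OPR7, LOX5, OPR12, AOS3 and DAD1) were added after their values were seen. The lists were matched by name only, so they cover each pathway in part, and DAD1 is by this name a gene unrelated to the lipase of that name. No sequences of these genes were used here. Alternatives were a replicate block, leaving out each array, quantile normalization, median centring, a filter on dim probe sets (mean log2 of at least 5), log2(intensity + 16), the equal-variance Student test, leaving out probe sets shared between transcripts, and, chosen after seeing the data, a 2-fold cutoff alone and a looser match of the JAZ names.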

Additional observations from a re-analysis of the deposited data

How the results depend on the processing

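The log2 fold changes of the 4 JAZ genes stayed above 0 in each of the 9 alternative settings, as they must with 1 array left out, with the replicate block or with the filter on dim probe sets. Their median stayed within the spread between replicates except without −N replicate 2 (0.79). With 1 array left out the median ranged from 0.79 to 1.87. With the JAZ names matched more loosely 7 genes were found, with a median of 1.18. Replicate numbers were not taken as pairing the arrays in the main analysis, since the methods of the study state no pairing. Its p-values therefore leave out any effect that same-numbered arrays share. Same-numbered arrays of the 2 groups were closer (1066 and 1338 probe sets at least 2-fold apart) than the arrays of a group (1873 in +Glu and 4133 in −N). Deviations of same-numbered arrays correlated at 0.55 over all probe sets, but 0 of the 4 JAZ genes deviated in the same direction in both groups. With the replicate number as a block the 4 estimates and their median (1.40) are the same by construction, 2 of the other JAZ and TIFY genes were higher (JAZ10, and JAZ8 at an unadjusted p of 0.0486 by limma), 1 pathway gene (AOS4) was lower, and the counts of lower probe sets and genes were 52 and 14.

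Against 551 probe sets and 305 genes higher at the 2-fold thresholds, there were 342 to 1090 and 195 to 618 with 1 array left out, 311 and 197 with the pseudocount, and 187 and 105 with the equal-variance test. Against 25 probe sets and 8 genes lower, there were 29 to 513 and 14 to 252 with 1 array left out, 40 and 16 after quantile normalization, 10 and 3 with the pseudocount, and 6 and 4 with the equal-variance test. A 2-fold cutoff alone gave 636 probe sets higher and 135 lower. Of the 13 other JAZ and TIFY genes, 1 was higher in the main analysis, 0 to 3 with 1 array left out, and 0 after quantile normalization, with the pseudocount or with the equal-variance test. Of the 31 pathway genes, 3 to 4 were higher and 0 to 1 lower with 1 array left out, and 1 was lower after quantile normalization. The 3 higher pathway genes became 2 after quantile normalization (AOS1 at 0.96), with the pseudocount (AOS1 at 0.99) and with the equal-variance test (CM-LOX2, unadjusted p = 0.0932). At an adjusted p under 0.05, against 0 genes, leaving out 1 array gave 0 to 278 of all genes, 0 to 3 pathway genes and 0 to 2 other JAZ and TIFY genes, the upper ends all without −N replicate 1, a fit in which the single −N array takes its spread from the +Glu arrays. The causes of these shifts were not tested. Dim probe sets such as that of JAZ2 have little signal over background.

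Among single genes, 33 values of 16 genes changed sign, 0 of them genes past the 2-fold thresholds, and 27 of these values came from leaving out 1 array. With 1 array left out the log2 fold changes of these genes ranged over −0.15 to 0.51 (TIFY8), −0.37 to 0.20 (TIFY1a), −0.41 to 0.27 (TIFY2b), −0.13 to 0.18 (JAZ2), −0.46 to 0.058 (AOS3), −0.18 to 0.26 (OPR8), −0.37 to 0.96 (OPR6), −0.083 to 0.053 (OPR5), −0.061 to 0.086 (OPR4), −0.46 to 0.54 (TPR2), −0.47 to 0.37 (TPR3), −0.021 to 0.24 (NINJA1), −0.13 to 0.098 (ASP1), −0.13 to 0.26 (salT), −0.038 to 0.099 (MYBS3) and −0.040 to 0.55 (PBZ1). The sign also changed after quantile normalization for OPR8 (−0.035), TPR2 (−0.022), ASP1 (0.034) and MYBS3 (−0.014), and with median centring for OPR5 (0.014) and ASP1 (0.014).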
